A study of Mus musculus with 11 samples.

Results

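Amino acid transporter genes were followed in mouse embryonic stem cells (ESCs) with and without the BMP receptor gene Bmpr1a, in ESC medium and after 3 days in N2B27. The members were all genes of the array's annotation whose symbol is Slc1a, Slc3a, Slc6a, Slc7a, Slc36a, Slc38a or Slc43a followed by a number and nothing else, with 1 further Slc38a gene left out. Only transcript clusters, the array's unit for a gene or part of one, that carry a single symbol were used. This gave 59 genes of 19935, on 61 clusters of 21780 with 1 symbol. Slc38a1 and Slc38a9 were each read by 2 clusters, whose values were averaged.

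RNA of 11 samples was measured on Affymetrix whole-transcript arrays, 1 array a sample. Control cells were wild-type ESCs of the E14 line, with 3 arrays in ESC medium (here control ESCs) and 3 after 3 days in N2B27. That medium holds no serum and lets ESCs leave self-renewal towards neural fates. Mutant cells were ESC lines labelled Bmpr1a-/-, with 2 arrays in ESC medium, numbered 2 and 3, and 3 arrays after 3 days in N2B27. The labels name 3 mutant lines (C1-6, Fr124 and Fr88) without saying which line is on which array, and give no lineage between E14 and the mutant lines, so genotype and cell line cannot be told apart. The labels do not tie arrays of a group to separate cultures, so each p-value rests on the scatter among the arrays, which may be technical, and the small number of arrays sets the precision.

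The values are log2 values relative to a baseline that the deposited table sets separately for each cluster and does not define. Differences between arrays are kept, but how bright a gene was is not, so no level of one transporter can be set against that of another, and whether a gene was expressed at all cannot be read from these values. Of the 59 members, 11 had a standard deviation below 0.1 over the 11 arrays. Differences are given in log2 units ± standard error from 1 limma fit of the 4 group means, and a gene was called at a Benjamini-Hochberg adjusted p under 0.05 over all 19935 genes.

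Amino acids cross membranes on carriers of several unrelated families. Slc7 light chains such as Slc7a5 pair with the heavy chains Slc3a2 or Slc3a1, which bring them to the surface. Cationic members of Slc7 such as Slc7a1 and Slc7a3 work alone and carry arginine and lysine. Leucine, arginine and glutamine brought in by such carriers are sensed at the lysosome and switch on the growth kinase complex mTORC1, and shortage of amino acids instead activates the transcription factor ATF4, which raises many transporter and aminoacyl-tRNA synthetase genes. Mouse ESCs are known for their dependence on threonine. BMP signalling through Bmpr1a, with LIF, helps to hold mouse ESCs in self-renewal.

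Bmpr1a itself was checked first. It read 0.37, 0.16 and 0.25 in control ESCs and -0.03 and 0.00 in mutant ESCs, and 0.61, 0.68 and 0.76 against 0.15, -0.14 and -0.05 in N2B27. The mutant arrays lay below the control arrays in both media, with differences of -0.27 in ESC medium (adjusted p = 0.145) and -0.70 in N2B27 (adjusted p = 0.00211), so in ESC medium the difference did not pass the test. Of 15 pluripotency markers, 13 fell in N2B27 in control cells and 13 in mutant cells, and of 6 epiblast markers 4 and 6 rose. The pluripotency marker Lin28a rose instead, by 0.59 in control and 0.76 in mutant cells. Of all genes, 13.3% fell and 12.8% rose in control cells, and 10.3% fell and 14.9% rose in mutant cells. Control ESC array 1 was the highest of its 3 arrays in 34 of 59 members. Control N2B27 array 1 was the highest of its 3 in 33 and mutant N2B27 array 2 in 31. Over the members the root mean square deviation of control ESC array 1 from its group was 0.191, against 0.106 and 0.128 for the other control ESC arrays. Over all genes it was 0.135 against 0.085 and 0.096. Mutant N2B27 arrays 1 and 2 deviated by 0.175 and 0.170 over the members. Genotype differences were shifted on chromosome 8, where the median over 955 genes was 0.117 in ESC medium and 0.170 in N2B27, and on the X chromosome, where it was 0.0897 and 0.0261 over 739 genes; the medians over all genes were -0.01 and 0.00. Of the chromosome 8 genes 16.8% were called in ESC medium (150 higher, 10 lower) and 25.5% in N2B27 (242 higher, 2 lower). For the X chromosome these shares were 23.5% and 11.9%. The upper quartiles were 0.331 and 0.385 on chromosome 8 and 0.427 and 0.186 on the X chromosome. Subtracting a chromosome's median, as done below, therefore takes away less than the difference of many genes there. Among the members, Slc38a7, Slc38a8, Slc6a2, Slc7a2, Slc7a5 and Slc7a6 lie on chromosome 8 and Slc38a5, Slc6a14, Slc6a8 and Slc7a3 on the X chromosome.

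The transporters that feed mTORC1 are taken first and apart. Slc7a5 carries leucine and other large neutral amino acids, Slc3a2 is its heavy chain, Slc1a5 exchanges glutamine and other small neutral amino acids, and Slc7a3 carries arginine and lysine. In ESC medium none of these 4 was called between genotypes, and in N2B27 none of the 4 was called either, against 6.14% of all genes called in ESC medium and 5.74% in N2B27. On leaving ESC medium, Slc1a5 fell in cells of both genotypes, Slc7a5 fell in control cells and Slc7a3 fell in mutant cells, against 26.1% of all genes called in control cells and 25.2% in mutant cells. Slc3a2 was called in none of these comparisons, though it passed in some alternatives given below.

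Slc7a5 read 0.11, -0.23 and -0.22 in control ESCs, 0.06 and 0.27 in mutant ESCs, -0.87, -0.52 and -0.77 in control cells in N2B27 and -0.61, -0.05 and 0.14 in mutant cells in N2B27. Every control array in N2B27 lay below every control ESC array, while the mutant arrays of the 2 media overlapped. Its medium difference was -0.61 ± 0.18 (adjusted p = 0.0333) in control cells and -0.33 ± 0.20 (adjusted p = 0.303) in mutant cells. The difference between these responses was 0.27 ± 0.27 (adjusted p = 0.770), so they were not shown to differ. Between genotypes Slc7a5 differed by 0.28 ± 0.20 (adjusted p = 0.587) in ESC medium and 0.55 ± 0.18 (adjusted p = 0.120) in N2B27, where mutant array 1 fell among the controls. Without that array the N2B27 difference was 0.77 (adjusted p = 0.0186), and with array weights 0.74 (adjusted p = 0.00687). Slc7a5 lies on chromosome 8. After subtracting that chromosome's median its differences were 0.16 (adjusted p = 0.804) in ESC medium and 0.38 (adjusted p = 0.293) in N2B27. The fall in control cells lost its call without control ESC array 1 (adjusted p = 0.119), control ESC array 2 (0.0553), control ESC array 3 (0.0529), control N2B27 array 1 (0.111) or control N2B27 array 3 (0.0947).

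Slc3a2 read 0.21, -0.16 and -0.14 in control ESCs, 0.01 and 0.20 in mutant ESCs, -0.38, -0.35 and -0.35 in control cells in N2B27 and -0.30, -0.21 and 0.05 in mutant cells in N2B27. The control arrays in N2B27 were within a narrow band below all control ESC arrays and below all mutant arrays in N2B27. The medium difference was -0.33 ± 0.12 (adjusted p = 0.0604) in control cells and -0.26 ± 0.13 (adjusted p = 0.197) in mutant cells. Between genotypes it was 0.13 ± 0.13 (adjusted p = 0.736) in ESC medium and 0.21 ± 0.12 (adjusted p = 0.402) in N2B27, so the arrays separated in N2B27 without a call. With array weights, which count arrays far from their group less, the N2B27 genotype difference was 0.35 (adjusted p = 0.0319) and the medium difference in control cells -0.25 (adjusted p = 0.0487), and both passed; the latter also passed with low-varying genes left out (adjusted p = 0.0451).

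Slc1a5 read 0.32, -0.16 and 0.00 in control ESCs, -0.05 and 0.26 in mutant ESCs, -0.57, -0.70 and -0.61 in control cells in N2B27 and -0.71, -0.27 and -0.56 in mutant cells in N2B27. All arrays in N2B27 were below all arrays in ESC medium in each genotype, and the genotypes overlapped in each medium. Slc1a5 fell in N2B27, with differences of -0.68 ± 0.14 (adjusted p = 0.00594) in control cells and -0.62 ± 0.16 (adjusted p = 0.0168) in mutant cells, folds of 1.6 and 1.53. The call in mutant cells was lost without mutant ESC array 3 (adjusted p = 0.157) or mutant N2B27 array 3 (0.0502). Its genotype differences were 0.05 ± 0.16 (adjusted p = 0.945) and 0.11 ± 0.14 (adjusted p = 0.782) in ESC medium and N2B27.

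Slc7a3 read 0.34, -0.38 and -0.52 in control ESCs, 0.57 and 0.57 in mutant ESCs, -0.41, -0.03 and 0.00 in control cells in N2B27 and -0.31, -0.25 and -0.13 in mutant cells in N2B27. Both mutant ESC arrays were above all 3 control ESC arrays, of which array 1 lay far above the other two. The genotype difference in ESC medium was 0.75 ± 0.22 (adjusted p = 0.0778); without control ESC array 1 it was 1.02 (adjusted p = 0.00253), and with array weights 0.90 (adjusted p = 0.00375). It also passed with low-varying genes left out (adjusted p = 0.0320). Slc7a3 lies on the X chromosome, and after subtracting that chromosome's median the difference in ESC medium was 0.66 (adjusted p = 0.127). In N2B27 the genotypes overlapped and differed by -0.08 ± 0.20 (adjusted p = 0.904). Slc7a3 fell in N2B27 in mutant cells, with a difference of -0.80 ± 0.22 (adjusted p = 0.0221), whereas in control cells the difference was 0.04 ± 0.20 (adjusted p = 0.942) and the arrays overlapped. The difference between the responses was -0.84 ± 0.29 (adjusted p = 0.220); without control ESC array 1 it was -1.10 (adjusted p = 0.0134), and with array weights -0.98 (adjusted p = 0.0226). The fall in mutant cells lost its call without mutant ESC array 2 (adjusted p = 0.115), mutant ESC array 3 (0.106) or mutant N2B27 array 1 (0.0571).

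**Figure D1:**
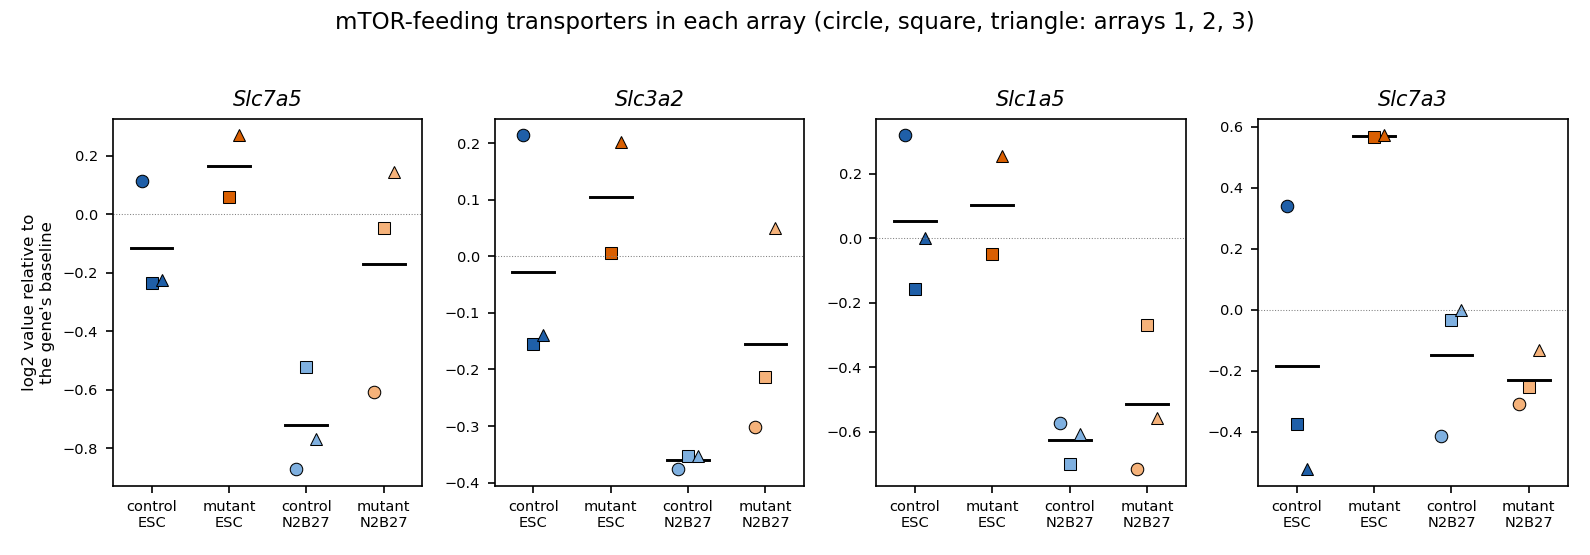
Log2 values relative to each gene's own baseline (y axis) of Slc7a5, Slc3a2, Slc1a5 and Slc7a3 on each of the 11 arrays, by group (x axis); circles, squares and triangles are arrays 1, 2 and 3, bars are group means, and each panel has its own scale. Slc1a5 is lower in N2B27 in both genotypes, and Slc7a3 is highest on the 2 mutant ESC arrays, at 0.57 and 0.57.

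Between genotypes in ESC medium, 6 of 59 members were called, 3 higher and 3 lower in mutant cells. That is 10.2% of the members, against 6.14% of all genes (3.09% higher and 3.05% lower). The creatine transporter Slc6a8, the glutamate and cysteine carrier Slc1a1 and the lysosomal glutamine exporter Slc38a7 were higher; the glutamate transporter Slc1a3, the branched-chain amino acid facilitator Slc43a1 and the system A glutamine carrier Slc38a1 were lower. The median difference over the 59 members was -0.02, beside -0.01 over all genes. The arrays of the genotypes did not overlap in 23 of the 59 members, beside 39.4% of all genes. Without mutant ESC array 2, which leaves 1 mutant array assumed to vary like the others, 2 members were called.

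Slc6a8 read 0.71, 0.20 and 0.13 in control ESCs, 1.46 and 1.39 in mutant ESCs, 0.02, -0.41 and -0.23 in control cells in N2B27 and 0.41, 0.19 and 0.25 in mutant cells in N2B27. Both mutant ESC arrays were above every other array of the series. The gene was 1.08 ± 0.17 (adjusted p = 0.00553) higher in mutant ESCs, a fold of 2.11. Slc6a8 lies on the X chromosome, and after subtracting that chromosome's median the difference was 0.99 (adjusted p = 0.00938). The call was lost without mutant ESC array 2 (adjusted p = 0.0689). In N2B27 the mutant arrays were again all above the controls, with a difference of 0.49 ± 0.15 (adjusted p = 0.104).

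Slc1a1 read 0.55, 0.17 and 0.39 in control ESCs, 1.31 and 0.94 in mutant ESCs, -0.12, -0.31 and -0.15 in control cells in N2B27 and 0.00, 0.00 and -0.08 in mutant cells in N2B27. The mutant ESC arrays were the highest of all 11 and the N2B27 arrays of both genotypes the lowest. The genotype difference was 0.76 ± 0.13 (adjusted p = 0.00734) in ESC medium and 0.17 ± 0.11 (adjusted p = 0.518) in N2B27. The first lost its call without mutant ESC array 2 (adjusted p = 0.0909).

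Slc38a7 read 0.25, 0.02 and -0.02 in control ESCs, 0.73 and 0.83 in mutant ESCs, -0.33, -0.36 and -0.44 in control cells in N2B27 and 0.19, 0.00 and 0.35 in mutant cells in N2B27. The mutant arrays were above the control arrays in both media, without overlap. The gene was higher in mutant cells by 0.70 ± 0.11 (adjusted p = 0.00541) in ESC medium and 0.56 ± 0.10 (adjusted p = 0.0116) in N2B27. Slc38a7 lies on chromosome 8. Less that chromosome's median the differences were 0.58 (adjusted p = 0.0149) and 0.39 (adjusted p = 0.0564), so the second no longer passed. The upper quartiles over the genes of that chromosome were 0.331 and 0.385. The first lost its call without mutant ESC array 3 (adjusted p = 0.0575), and the second without control N2B27 array 3 (adjusted p = 0.0548).

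Slc1a3 read -0.46, -0.27 and -0.31 in control ESCs, -1.12 and -1.02 in mutant ESCs, 0.11, -0.07 and 0.02 in control cells in N2B27 and -0.01, -0.07 and 0.10 in mutant cells in N2B27. Both mutant ESC arrays were below all other arrays, and the N2B27 arrays of the genotypes were intermingled. The genotype difference was -0.73 ± 0.08 (adjusted p = 0.00113) in ESC medium, a fold of 1.65, and -0.01 ± 0.08 (adjusted p = 0.974) in N2B27.

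Slc43a1 read -0.11, -0.40 and -0.31 in control ESCs, -1.04 and -0.78 in mutant ESCs, 0.21, 0.02 and 0.06 in control cells in N2B27 and 0.08, 0.13 and 0.32 in mutant cells in N2B27. As with Slc1a3, the mutant ESC arrays were the lowest of the series and the N2B27 arrays overlapped. Slc43a1 differed by -0.63 ± 0.11 (adjusted p = 0.0105) in ESC medium and 0.08 ± 0.10 (adjusted p = 0.785) in N2B27. The first lost its call without mutant ESC array 2 (adjusted p = 0.133).

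Slc38a1 read 0.45, 0.20 and 0.11 in control ESCs, -0.30 and -0.20 in mutant ESCs, -0.19, -0.30 and -0.27 in control cells in N2B27 and -0.11, -0.31 and -0.33 in mutant cells in N2B27, as the mean of its clusters. Control ESCs were above the 3 other groups, which overlapped with each other. The genotype difference was -0.50 ± 0.11 (adjusted p = 0.0205) in ESC medium and 0.01 ± 0.09 (adjusted p = 0.987) in N2B27. Neither cluster was called on its own in ESC medium, at -0.61 (adjusted p = 0.0630) and -0.39 (adjusted p = 0.0804). The call on the mean was lost without control ESC array 2 (adjusted p = 0.0517), mutant ESC array 2 (0.190) or mutant ESC array 3 (0.0859), and with the compared groups fitted alone (adjusted p = 0.0594).

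**Figure D2:**
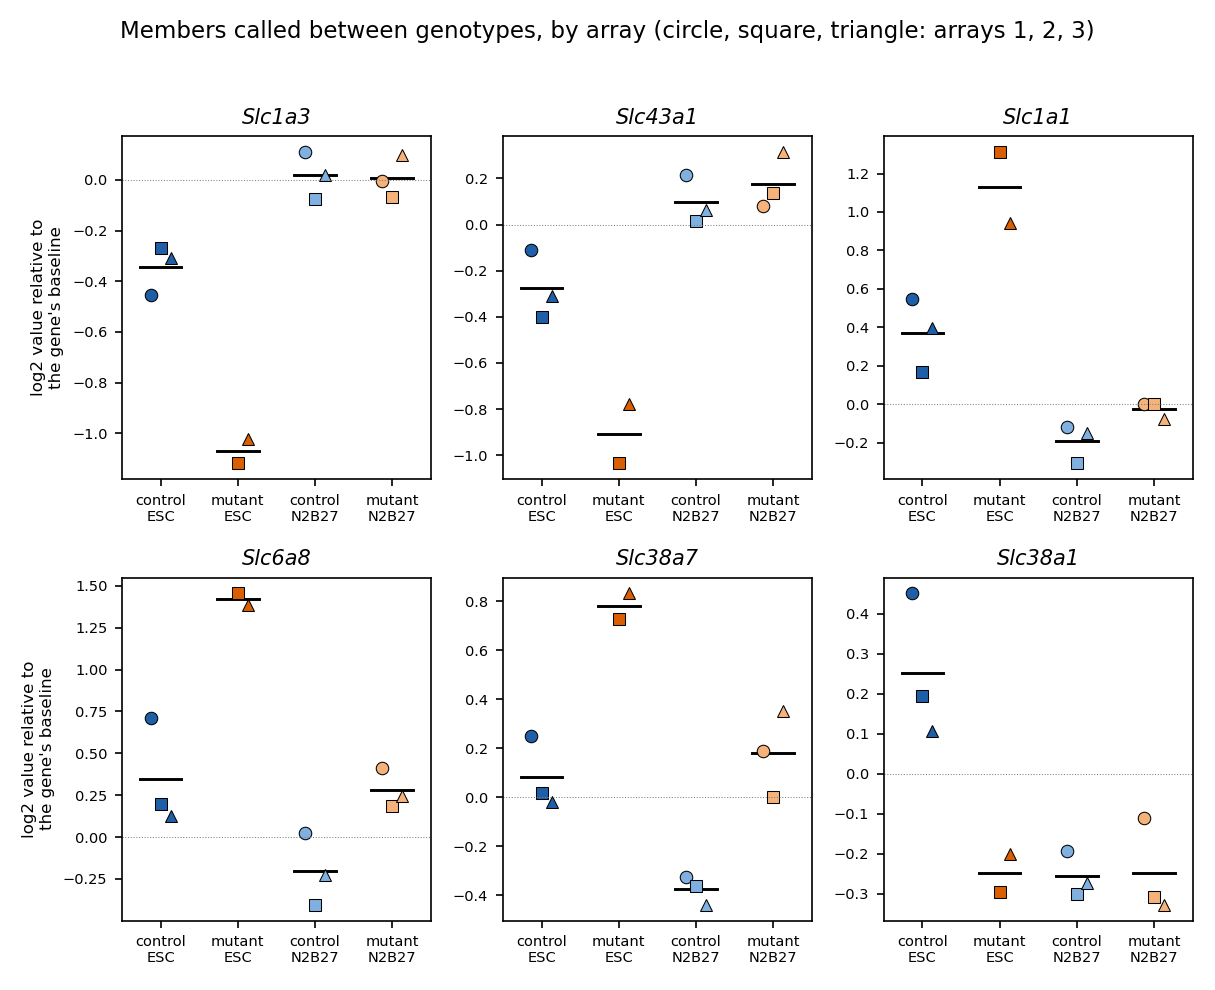
Log2 values relative to each gene's own baseline (y axis) of the 6 members called between genotypes, on each array by group (x axis); circles, squares and triangles are arrays 1, 2 and 3, bars are group means, and each panel has its own scale. The 2 mutant ESC arrays are the lowest of the series for Slc1a3 and Slc43a1 and the highest for Slc1a1, Slc6a8 and Slc38a7.

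Promoter windows were read to show the sequence upstream of members. RefSeq windows of 300 bases on GRCm38.p6, 250 before to 50 after an annotated gene start, matched 42 members with 61 windows. The other 17 members were not searched: Slc1a5, Slc36a2, Slc38a1, Slc38a3, Slc43a3, Slc6a15, Slc6a18, Slc6a2, Slc6a6, Slc6a7, Slc6a8, Slc7a12, Slc7a13, Slc7a2, Slc7a3, Slc7a4 and Slc7a5. The 61 windows were searched on both strands for CACGTG, the canonical E-box that TFEB, MYC and other basic helix-loop-helix factors bind, and for TGATGNAA, part of the element that ATF4 binds with C/EBP factors; the letters of these motifs do not overlap each other. CACGTG was in 9 of the 61 member windows (14.8%) and in 7.15% of all 32851 windows, and those 9 belonged to 9 of the 42 members searched, among them Slc43a1, Slc38a7, Slc38a5, Slc1a6 and Slc36a1. The windows of the 2 genes of this kind that were called between genotypes in opposite directions follow 5′ to 3′, with CACGTG in capitals. That of Slc43a1 (chr2:84840073-84840372, plus strand) has it starting at -64 from the gene start, and that of Slc38a7 (chr8:95853442-95853741, minus strand) at -34.
Slc43a1: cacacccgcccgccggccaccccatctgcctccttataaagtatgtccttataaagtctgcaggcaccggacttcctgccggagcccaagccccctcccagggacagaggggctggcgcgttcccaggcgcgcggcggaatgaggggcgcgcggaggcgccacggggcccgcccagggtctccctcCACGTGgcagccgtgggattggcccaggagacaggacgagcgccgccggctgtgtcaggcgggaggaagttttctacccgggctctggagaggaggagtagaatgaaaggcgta
Slc38a7: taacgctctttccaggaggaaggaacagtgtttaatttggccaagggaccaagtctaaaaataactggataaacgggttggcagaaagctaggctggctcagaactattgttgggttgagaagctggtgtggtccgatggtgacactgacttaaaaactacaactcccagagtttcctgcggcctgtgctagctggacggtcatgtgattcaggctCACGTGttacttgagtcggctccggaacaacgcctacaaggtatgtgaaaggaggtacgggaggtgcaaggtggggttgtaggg
A match describes these letters and not binding.

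After 3 days in N2B27, 1 member was called between genotypes, Slc38a7, higher in mutant cells as given above. That is 1.69% of 59 members, beside 5.74% of all genes (4.1% higher and 1.64% lower). The arrays did not overlap in 10 members, beside 20.2% of all genes. With the array number as a block, 4 members were called. The block added the glutamine carrier Slc38a2 at 0.37 ± 0.06 (adjusted p = 0.0116), Slc6a8 at 0.49 ± 0.09 (adjusted p = 0.0130) and the large neutral amino acid light chain Slc7a8 at 0.52 ± 0.12 (adjusted p = 0.0398), each higher in mutant cells. Without the block their adjusted p-values were 0.314, 0.104 and 0.0627. The call count ran from 0 without control N2B27 array 3 to 5 without mutant N2B27 array 1.

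By family, the genotype comparisons called 2 of 7 Slc1a members, 1 of 18 Slc6a, 2 of 10 Slc38a and 1 of 3 Slc43a in ESC medium, beside 6.14% of all genes. They called none of the 10 light chains, the 2 heavy chains, the 5 cationic Slc7a members or the 4 proton-coupled Slc36a carriers in either medium; the shares of all genes, 6.14% and 5.74%, come to less than 1 gene in each group of these sizes, so nothing is read from these counts. With the array number as a block the light chain Slc7a8 was called in N2B27, as given above, and with array weights Slc7a3, Slc7a7 and Slc7a8 were called in ESC medium and Slc7a5, Slc7a8, Slc3a2 and Slc7a1 in N2B27. Within these uncalled groups the differences of largest size in ESC medium were -0.63 ± 0.19 (adjusted p = 0.0878) for the light chain Slc7a7, which exchanges cationic for neutral amino acids, 0.13 ± 0.13 (adjusted p = 0.736) for the heavy chain Slc3a2, 0.75 ± 0.22 (adjusted p = 0.0778) for Slc7a3 and 0.14 ± 0.09 (adjusted p = 0.499) for Slc36a3. In N2B27 the member farthest from 0 was Slc6a15, a branched-chain amino acid and proline carrier of neurons, at -0.84 ± 0.24 (adjusted p = 0.0754); its mutant arrays there read 0.31, -0.82 and 0.09.

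**Figure D3:**
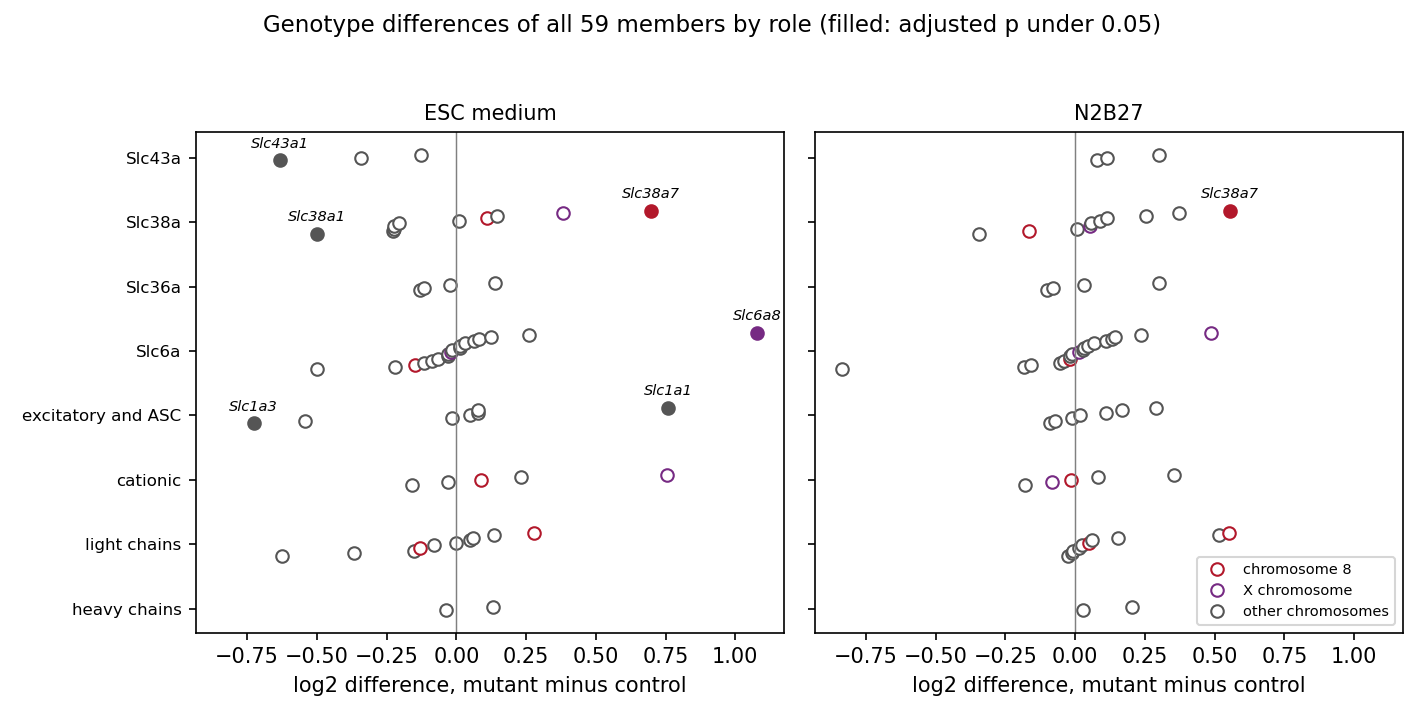
Log2 difference between mutant and control cells (x axis) of all 59 members in ESC medium (left) and N2B27 (right), by family or role (y axis); filled points are called at an adjusted p under 0.05 and colours mark chromosome 8, the X chromosome and all others. Called members lie on both sides of 0 in ESC medium, and Slc38a7 alone is filled in N2B27.

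Lists of cell type markers moved with genotype too, and their part in the members' differences was not tested. The mean of the 6 epiblast markers ran from -0.65 to -0.36 in control ESCs and from -1.35 to -0.98 in mutant ESCs, with Sox4 and Lef1 lower in mutant ESCs, at -1.12 ± 0.17 (adjusted p = 0.00382) and -1.27 ± 0.26 (adjusted p = 0.0177). The mean of the 9 fibroblast and feeder markers ran from 0.01 to 0.12 in control ESCs and from -0.43 to -0.34 in mutant ESCs, and 3 of the 9 were lower there: Tagln at -2.23, Col1a1 at -1.32 and Col1a2 at -0.73. The other 6 were not called, 4 of them with differences above 0 (Twist1, Thy1, Postn and Col3a1), and the median over the 9 was -0.02. The mean of the 5 neuron markers ran from -0.21 to -0.14 in control ESCs and from 0.11 to 0.18 in mutant ESCs, with 1 of the 5 called higher, Tubb3, which is on chromosome 8, at 1.18; the median over the 5 was 0.07. In N2B27 the neuron means were -0.48 to -0.23 in control cells and 0.22 to 0.25 in mutant cells, with Tubb3 at 2.01 and Elavl3 at 0.59 called and a median of 0.17. In N2B27 the mean of the 15 pluripotency markers was -0.95 to -0.72 in control cells and -0.40 to -0.24 in mutant cells. There 4 of the 15 were called higher in mutant cells: Pou5f1, Esrrb, Dppa5a and Zfp42, the last on chromosome 8. That is 26.7%, beside 5.74% of all genes. The median was 0.42, and 3 lay below 0: Nanog, Lin28a and Sall4. In ESC medium Zfp42 at 0.88 and Klf4 at 0.64 were called higher, 13.3% beside 6.14% of all genes. The median there was 0.10, with 5 of the 15 below 0. The called shares of the epiblast, feeder and neuron markers were 33.3%, 33.3% and 20% in ESC medium, beside 6.14% of all genes. In N2B27 they were 16.7%, 22.2% and 40%, beside 5.74%. There Pou3f1 (0.62) and Twist1 (0.43) were called higher and Col1a2 (-0.58) lower. Of the 9 measured neural progenitor markers, 7 had negative differences in N2B27, with Nes called higher at 1.27 and Msi1 lower at -0.71. Since brightness is not kept, which of these markers were near 0 cannot be read, and in bulk RNA fewer cells of a type and less RNA per cell cannot be told apart.

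Between media, 14 of 59 members were called in control cells (6 higher and 8 lower in N2B27) and 14 in mutant cells (7 higher and 7 lower). These are 23.7% of the members in each, beside 26.1% of all genes in control cells (12.8% higher, 13.3% lower) and 25.2% in mutant cells (14.9% higher, 10.3% lower). The member medians were 0.01 and 0.03, beside 0.02 and 0.01 over all genes. Non-overlapping arrays were found in 24 and 27 members, beside 43.9% and 43.5% of all genes. The comparisons share no array, and 8 members were called in both, all in the same direction: Slc7a1, Slc1a1, Slc6a8, Slc1a5 and Slc38a7 fell, and Slc1a3, Slc43a1 and Slc7a6 rose. These 8 are 57.1% of the members called in each genotype; over all genes, 3267 were called in both, 62.8% of those called in control and 65.1% of those called in mutant cells. In all, 20 members were called in some comparison and 39 in none. The count in control cells was 8 without control ESC array 1 and 9 without control ESC array 2, and in mutant cells 9 without mutant ESC array 2. Pluripotency and epiblast markers moved in the same comparisons, as given above, and their part in the members' changes was not tested.

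Among cationic carriers, Slc7a1, the main arginine and lysine carrier of proliferating cells, had the largest medium difference of all 59 members in both genotypes. It read 0.99, 0.50 and 0.43 in control ESCs, 0.86 and 0.87 in mutant ESCs, -1.06, -1.04 and -1.28 in control cells in N2B27 and -1.19, -0.46 and -0.67 in mutant cells in N2B27. All ESC arrays were above 0 and all N2B27 arrays below. Slc7a1 fell 3.4-fold in control cells, a difference of -1.76 ± 0.19 (adjusted p = 1.60e-04), and 3.12-fold in mutant cells, a difference of -1.64 ± 0.21 (adjusted p = 3.84e-04). These calls held in every alternative tried. Of the other cationic members only Slc7a3 was called, in mutant cells.

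Among light chains, Slc7a6 and Slc7a8 rose and Slc7a5 and Slc7a7 fell, Slc7a8 in mutant cells and Slc7a5 and Slc7a7 in control cells. Slc7a6, which exchanges cationic for neutral amino acids, read -0.38, -0.60 and -0.54 in control ESCs, -0.80 and -0.48 in mutant ESCs, -0.06, -0.10 and 0.00 in control cells in N2B27 and -0.11, -0.01 and 0.11 in mutant cells in N2B27. Its N2B27 arrays were above its ESC arrays in both genotypes, by 0.46 ± 0.09 (adjusted p = 0.00576) in control and 0.64 ± 0.11 (adjusted p = 0.00163) in mutant cells. Slc7a8 read -0.14, -0.10 and -0.11 in control ESCs, -0.54 and -0.41 in mutant ESCs, 0.00, 0.18 and 0.08 in control cells in N2B27 and 0.36, 1.00 and 0.45 in mutant cells in N2B27. The mutant cells spanned the series, lowest in ESC medium and highest in N2B27 with array 2 at the top, and their medium difference was 1.08 ± 0.16 (adjusted p = 7.40e-04) against 0.20 ± 0.14 (adjusted p = 0.375) in control cells. The difference between these responses was 0.88 ± 0.21 (adjusted p = 0.0657), or 0.94 ± 0.19 (adjusted p = 0.0378) with the array number as a block.

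Slc7a7 read 0.47, 0.14 and 0.00 in control ESCs, -0.44 and -0.40 in mutant ESCs, -0.27, -0.67 and -0.26 in control cells in N2B27 and 0.00, -0.18 and -0.56 in mutant cells in N2B27. Control ESCs were above all other arrays except mutant N2B27 array 1, which was level with control ESC array 3. Its medium difference was -0.60 ± 0.17 (adjusted p = 0.0234) in control and 0.17 ± 0.19 (adjusted p = 0.607) in mutant cells, with 0.78 ± 0.25 (adjusted p = 0.178) between them. The call in control cells was lost without control ESC array 1 (adjusted p = 0.0863), control ESC array 2 (0.0508) or control N2B27 array 2 (0.0858). The cystine and glutamate exchanger Slc7a11 was not called, at -0.08 ± 0.07 (adjusted p = 0.490) and -0.19 ± 0.08 (adjusted p = 0.107).

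In the Slc1a family, Slc1a1 fell in N2B27, with differences of -0.56 ± 0.11 (adjusted p = 0.00520) in control cells and -1.15 ± 0.13 (adjusted p = 1.74e-04) in mutant cells, and Slc1a3 rose by 0.36 ± 0.08 (adjusted p = 0.00566) and 1.08 ± 0.08 (adjusted p = 2.58e-05). Their array values stand above: every N2B27 array of Slc1a1 was below every ESC array, and every N2B27 array of Slc1a3 above every ESC array. Slc1a4, a carrier of alanine, serine and cysteine, read -0.13, -0.29 and -0.16 in control ESCs, -0.87 and -0.61 in mutant ESCs, -0.02, -0.41 and -0.43 in control cells in N2B27 and -0.32, 0.08 and 0.25 in mutant cells in N2B27. Its mutant ESC arrays were the lowest of the series, and it rose in N2B27 in mutant cells by 0.74 ± 0.17 (adjusted p = 0.0101), with -0.09 ± 0.15 (adjusted p = 0.768) in control cells. Slc1a6, a glutamate transporter known from Purkinje cells, read -0.19, -0.20 and -0.23 in control ESCs, -0.17 and -0.10 in mutant ESCs, 0.48, 0.12 and -0.06 in control cells in N2B27 and 0.04, 0.16 and 0.07 in mutant cells in N2B27, and rose in control cells by 0.39 ± 0.11 (adjusted p = 0.0273), with array 1 well above the other N2B27 arrays. The Slc1a4 call was lost without mutant ESC array 2 (adjusted p = 0.110), and the Slc1a6 call without control ESC array 1 (adjusted p = 0.0635), control ESC array 2 (0.0689), control ESC array 3 (0.0729) or control N2B27 array 2 (0.0510). The latter was also lost with the compared groups fitted alone (adjusted p = 0.0643).

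Of the 18 Slc6a members, which also include the noradrenaline, dopamine and serotonin transporters, Slc6a8 and Slc6a15 were called. Slc6a8 fell in N2B27, with differences of -0.55 ± 0.15 (adjusted p = 0.0247) in control cells and -1.14 ± 0.17 (adjusted p = 9.42e-04) in mutant cells. Slc6a15 read -0.40, -0.10 and -0.22 in control ESCs, -0.46 and -0.45 in mutant ESCs, 0.74, 0.50 and 0.86 in control cells in N2B27 and 0.31, -0.82 and 0.09 in mutant cells in N2B27. The control arrays in N2B27 were the highest of the series, while mutant N2B27 array 2 was the lowest. Slc6a15 rose in control cells by 0.93 ± 0.24 (adjusted p = 0.0162), with 0.32 ± 0.27 (adjusted p = 0.482) in mutant cells and -0.62 ± 0.36 (adjusted p = 0.519) between them. In control cells the Slc6a8 call was lost without control ESC array 1 (adjusted p = 0.0609), control N2B27 array 2 (0.0911) or control N2B27 array 3 (0.0703), or with the compared groups fitted alone (adjusted p = 0.0596), and the Slc6a15 call without control ESC array 1 (adjusted p = 0.0575) or control N2B27 array 3 (0.0601).

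Among the 10 Slc38a members, Slc38a7 fell in N2B27, with differences of -0.46 ± 0.10 (adjusted p = 0.00700) in control cells and -0.60 ± 0.11 (adjusted p = 0.00288) in mutant cells. Slc38a1 fell in control cells, with a difference of -0.51 ± 0.09 (adjusted p = 0.00308), with 0.00 ± 0.11 (adjusted p = 0.996) in mutant cells. The clusters of Slc38a1 disagreed in control cells, at -0.96 (adjusted p = 0.00122) and -0.05 (adjusted p = 0.814). Slc38a3, a system N glutamine and histidine carrier, read -0.56, -0.44 and -0.11 in control ESCs, -0.75 and -0.44 in mutant ESCs, 0.39, 0.10 and -0.05 in control cells in N2B27 and -0.08, -0.21 and -0.31 in mutant cells in N2B27, and rose in control cells by 0.52 ± 0.14 (adjusted p = 0.0244); the nearest arrays of the media, at -0.11 and -0.05, almost met. In mutant cells its arrays did not overlap between media and the difference was 0.40 ± 0.16 (adjusted p = 0.108). Slc38a9, the lysosomal arginine carrier that signals to mTORC1, rose in mutant cells by 0.54 ± 0.13 (adjusted p = 0.0104). In control cells its difference was 0.20 ± 0.11 (adjusted p = 0.257), or 0.20 ± 0.06 (adjusted p = 0.0469) with the array number as a block. Slc38a5, another system N carrier, fell in mutant cells, with a difference of -0.50 ± 0.16 (adjusted p = 0.0387), against -0.17 ± 0.14 (adjusted p = 0.460) in control cells. Calls were lost without control ESC array 1 (adjusted p = 0.0906), control ESC array 2 (0.0783), control N2B27 array 1 (0.0892) or control N2B27 array 2 (0.0520) for Slc38a3, without mutant ESC array 2 (adjusted p = 0.131) for Slc38a9, and without mutant ESC array 2 (adjusted p = 0.302), mutant N2B27 array 1 (0.105) or mutant N2B27 array 3 (0.0734) for Slc38a5, which was also not called with the compared groups fitted alone (adjusted p = 0.0509).

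In the Slc43a family, Slc43a1 rose by 0.37 ± 0.10 (adjusted p = 0.0230) in control cells and by 1.08 ± 0.11 (adjusted p = 1.33e-04) in mutant cells. Slc43a2, a related facilitator of branched-chain amino acids, read -0.09, -0.40 and -0.35 in control ESCs, -0.72 and -0.52 in mutant ESCs, 0.30, -0.31 and 0.09 in control cells in N2B27 and 0.01, -0.08 and 0.48 in mutant cells in N2B27. It rose in mutant cells by 0.76 ± 0.20 (adjusted p = 0.0181), where the ESC arrays were the lowest of the series, with 0.31 ± 0.18 (adjusted p = 0.274) in control cells, whose media overlapped. Slc43a3 was not called, at -0.15 ± 0.10 (adjusted p = 0.330) and 0.28 ± 0.11 (adjusted p = 0.0869). The call of Slc43a1 in control cells was lost without control ESC array 2 (adjusted p = 0.0895), control ESC array 3 (0.0672), control N2B27 array 1 (0.0857) or control N2B27 array 3 (0.0523), and that of Slc43a2 in mutant cells without mutant ESC array 2 (adjusted p = 0.145), mutant ESC array 3 (0.0543) or mutant N2B27 array 3 (0.0521). None of the 4 Slc36a carriers and neither heavy chain was called between media; in mutant cells the lysosomal proton-coupled carrier Slc36a1 differed by 0.33 ± 0.13 (adjusted p = 0.0922).

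**Figure D4:**
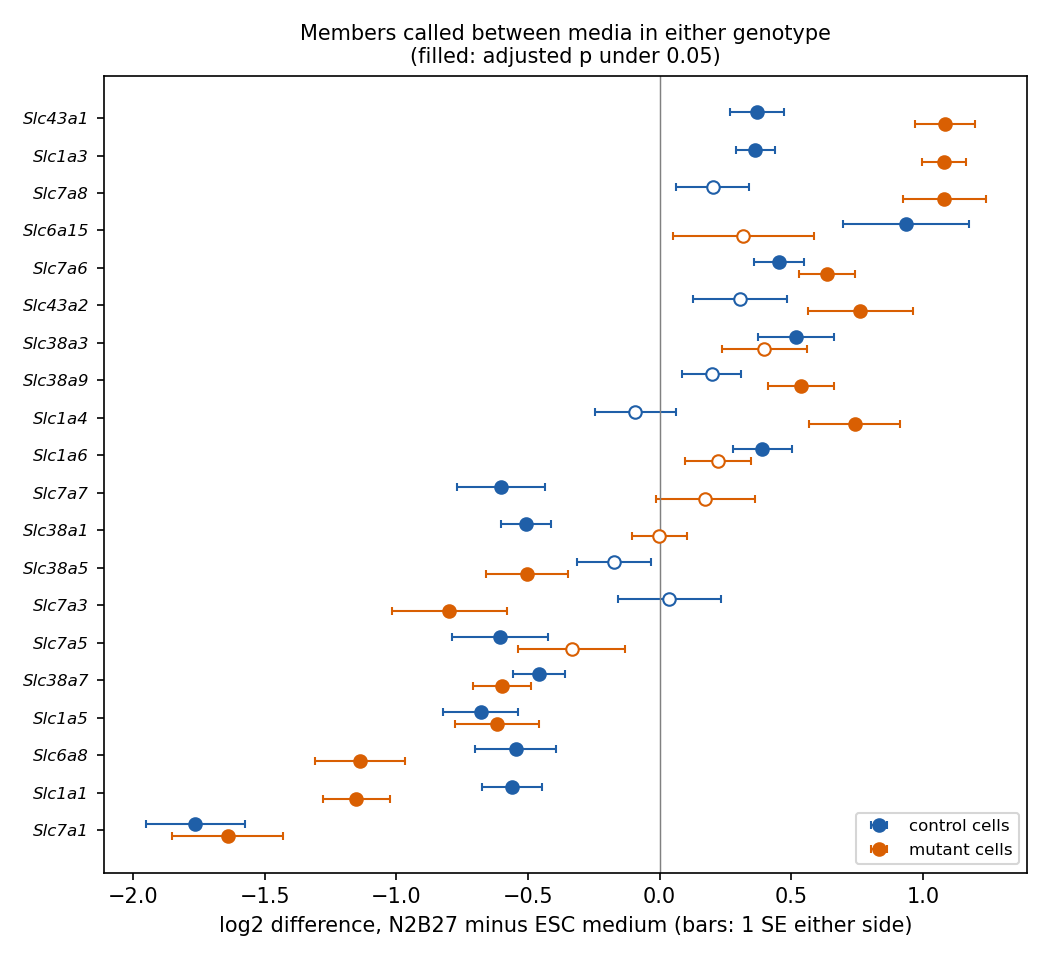
Log2 difference between N2B27 and ESC medium (x axis, bars 1 standard error either side) in control and mutant cells for the 20 members called in at least 1 genotype (y axis); filled points are called at an adjusted p under 0.05. Slc7a1 is lowest in both genotypes, and the mutant point lies farthest to the right of the control point for Slc7a8, Slc1a4, Slc7a7, Slc1a3 and Slc43a1, by 0.88 to 0.71, and farthest to the left for Slc7a3, by -0.84.

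The medium responses were compared between genotypes by the interaction, the genotype difference in N2B27 less that in ESC medium. It was called in 2 of 59 members, 3.39%, beside 2.12% of all genes. These were Slc1a3 at 0.72 ± 0.11 (adjusted p = 0.0143) and Slc43a1 at 0.71 ± 0.15 (adjusted p = 0.0470), both lower in mutant ESCs, with genotype differences in N2B27 of -0.01 ± 0.08 (adjusted p = 0.974) and 0.08 ± 0.10 (adjusted p = 0.785). The Slc1a3 call was lost without mutant ESC array 2 (adjusted p = 0.0896), and the Slc43a1 call in 11 of 19 alternatives, 10 of them leaving out 1 array, at adjusted p-values up to 0.225. The count was 0 without mutant ESC array 2 and 4 without mutant N2B27 array 1. With the array number as a block the count was 4, with Slc6a8 at -0.71 ± 0.13 (adjusted p = 0.0275) and Slc7a8 added. The mean of the 6 epiblast markers also moved further in mutant cells, where its arrays lay at -1.35 to -0.98 in ESC medium and 0.15 to 0.51 in N2B27, against -0.65 to -0.36 and 0.30 to 0.52 in control cells, with Pou3f1 the 1 of the 6 whose interaction was called, at 1.08 ± 0.23 (adjusted p = 0.0480). Of the 6, 5 had positive interactions and Otx2 went the other way, at -0.60 ± 0.25 (adjusted p = 0.314). The interaction was also called for Col1a1 at 1.55 ± 0.27 (adjusted p = 0.0194) and Tagln at 2.35 ± 0.48 (adjusted p = 0.0371) of the 9 fibroblast and feeder markers. It was called for Nes too, at 2.11 ± 0.43 (adjusted p = 0.0367), of the 9 measured neural progenitor markers. The part of these markers in the members' interactions was not tested.

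Other genes of amino acid sensing and use were counted from 4 lists. Of 39 measured genes of mTORC1 and its amino acid sensors, 9 rose and 7 fell in N2B27 in control cells, and 8 rose and 4 fell in mutant cells, with medians of 0.04 and -0.03. These are 41.0% and 30.8% of the list, beside 26.1% and 25.2% of all genes. The rises were led in control cells by Sesn3, of the sestrin family of leucine sensors, at 1.31 ± 0.13 (adjusted p = 9.99e-05) and the Rag GTPase Rragd at 1.21 ± 0.12 (adjusted p = 1.32e-04) and in mutant cells by Castor2 at 1.44 ± 0.17 (adjusted p = 2.55e-04). The falls included the leucine sensor Sesn2 in control cells at -1.20 ± 0.18 (adjusted p = 0.00109), which was not called in mutant cells, the lysosomal transcription factor Tfeb at -1.07 ± 0.14 (adjusted p = 3.84e-04) in control and -1.37 ± 0.15 (adjusted p = 1.79e-04) in mutant cells, and the arginine sensor Castor1 at -0.92 ± 0.09 (adjusted p = 9.70e-05) and -1.01 ± 0.10 (adjusted p = 9.21e-05). Between genotypes 3 of the 39 were higher in mutant ESCs and 4 higher and 2 lower in N2B27, which is 7.69% and 15.4% beside 6.14% and 5.74% of all genes. Castor1, Wdr59 of the GATOR complex and the translation repressor Eif4ebp1 were higher in both media, with Wdr59 and Eif4ebp1 on chromosome 8. Castor1 differed by 0.58 ± 0.10 (adjusted p = 0.00818) and 0.48 ± 0.09 (adjusted p = 0.0133).

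Of 27 measured genes of the ATF4 response, none rose and 12 fell in N2B27 in control cells, and 3 rose and 14 fell in mutant cells, with medians of -0.32 and -0.38 beside 0.02 and 0.01 over all genes. Of all genes, 12.8% rose and 13.3% fell in control cells and 14.9% rose and 10.3% fell in mutant cells. The pseudokinase gene Trib3 fell, with differences of -1.38 ± 0.18 (adjusted p = 4.33e-04) in control and -1.07 ± 0.20 (adjusted p = 0.00297) in mutant cells, and so did the mitochondrial serine enzyme gene Shmt2, with -1.24 ± 0.16 (adjusted p = 4.43e-04) and -1.61 ± 0.18 (adjusted p = 1.79e-04). Atf4 itself fell, with differences of -0.51 ± 0.07 (adjusted p = 6.70e-04) and -0.38 ± 0.08 (adjusted p = 0.00583). In mutant cells Atf3 rose by 0.98 ± 0.19 (adjusted p = 0.00401). Between genotypes 2 of the 27 were higher and 1 lower in mutant ESCs, and 3 higher and 1 lower in N2B27, which is 11.1% and 14.8% beside 6.14% and 5.74% of all genes. The 2 higher in mutant ESCs, Gpt2 and Eif4ebp1, are on chromosome 8. Of the 3 higher in N2B27 (Atf4, Atf3 and Eif4ebp1), Eif4ebp1 is on chromosome 8. The lower gene in both media was Phgdh, the first enzyme of serine synthesis, at -1.10 ± 0.12 (adjusted p = 8.24e-04) and -1.14 ± 0.11 (adjusted p = 5.61e-04).

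TGATGNAA was in 5 of the 61 member promoter windows (8.2%) and in 3.97% of all windows, and those belonged to 4 of the 42 members searched: Slc7a11, Slc7a7, Slc1a4 and Slc6a21. Slc7a7 has overlapping windows among these 5. Its site at -1 in the window shown is counted again at -243 in the window chr14:54417653-54417952. The windows of 3 of them are shown. Between media Slc7a7 was called lower in control cells only, Slc1a4 was called higher in mutant cells only and Slc7a11 was not called. In control cells the medium differences of Slc7a7, Slc1a4 and Slc7a11, given above, were negative, while that of Slc6a21 was 0.08. In mutant cells those of Slc7a7 and Slc1a4 were positive, as was that of Slc6a21 at 0.09, while that of Slc7a11 was negative. A shared response of these genes was not tested. The motif, on either strand, is in capitals, at -66 and -47 from the gene start in Slc7a11 (chr3:50443564-50443863, minus strand), at -141 and -1 in Slc7a7 (chr14:54417895-54418194, minus strand) and at -4 in Slc1a4 (chr11:20332664-20332963, minus strand).
Slc7a11: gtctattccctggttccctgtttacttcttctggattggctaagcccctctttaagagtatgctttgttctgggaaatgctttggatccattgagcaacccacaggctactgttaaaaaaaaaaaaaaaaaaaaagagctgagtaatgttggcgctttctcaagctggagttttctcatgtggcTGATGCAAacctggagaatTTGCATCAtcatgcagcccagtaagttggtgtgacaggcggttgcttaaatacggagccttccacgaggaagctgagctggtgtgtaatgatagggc
Slc7a7: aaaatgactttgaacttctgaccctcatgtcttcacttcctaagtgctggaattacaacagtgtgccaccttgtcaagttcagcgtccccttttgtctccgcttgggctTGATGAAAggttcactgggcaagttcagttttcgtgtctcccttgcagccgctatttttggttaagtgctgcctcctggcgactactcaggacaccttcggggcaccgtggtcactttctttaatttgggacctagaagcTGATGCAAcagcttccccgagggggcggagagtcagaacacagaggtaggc
Slc1a4: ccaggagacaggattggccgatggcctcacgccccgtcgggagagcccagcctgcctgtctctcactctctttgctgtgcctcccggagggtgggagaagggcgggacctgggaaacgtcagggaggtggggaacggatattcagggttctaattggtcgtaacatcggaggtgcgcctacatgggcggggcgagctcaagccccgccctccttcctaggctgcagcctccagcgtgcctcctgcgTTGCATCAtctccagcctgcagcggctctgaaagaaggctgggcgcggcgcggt

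Of 17 measured cytosolic aminoacyl-tRNA synthetase genes, which charge tRNAs for translation, 13 fell and none rose in N2B27 in control cells, and 10 fell and 1 rose in mutant cells, with medians of -0.42 and -0.37. These are 76.5% and 64.7% of the list, beside 26.1% and 25.2% of all genes. Tars fell, with differences of -0.80 ± 0.09 (adjusted p = 1.88e-04) and -0.71 ± 0.10 (adjusted p = 5.87e-04), and Farsa fell, with -0.67 ± 0.10 (adjusted p = 0.00122) and -0.53 ± 0.12 (adjusted p = 0.00789); Qars rose in mutant cells by 0.40 ± 0.08 (adjusted p = 0.00490). Between genotypes 1 was lower in mutant ESCs, and Farsa and Kars, both on chromosome 8, were higher in N2B27, which is 5.88% and 11.8% beside 6.14% and 5.74% of all genes. Of 22 measured enzyme genes of threonine, serine, glycine, proline, glutamine and related metabolism, 2 rose and 10 fell in control cells and 5 rose and 9 fell in mutant cells, 54.5% and 63.6% of the list against the same shares of all genes. The branched-chain aminotransferase gene Bcat1 fell, with differences of -1.09 ± 0.17 (adjusted p = 0.00145) and -1.22 ± 0.20 (adjusted p = 0.00132). Between genotypes 4 of the 22 were lower in mutant ESCs, and 2 were higher and 1 lower in N2B27. These are 18.2% and 13.6% of the list, beside 6.14% and 5.74% of all genes. Got2, 1 of the 2 higher in N2B27, is on chromosome 8. The interaction was called for Gldc, of glycine cleavage, at 1.01 ± 0.17 (adjusted p = 0.0172) and for Bcat2 at 0.66 ± 0.11 (adjusted p = 0.0157), 9.09% of this list beside 2.12% of all genes. Some genes are in more than 1 list, among them Shmt2, Psat1, Psph, Phgdh, Sesn2 and Eif4ebp1.

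**Figure D5:**
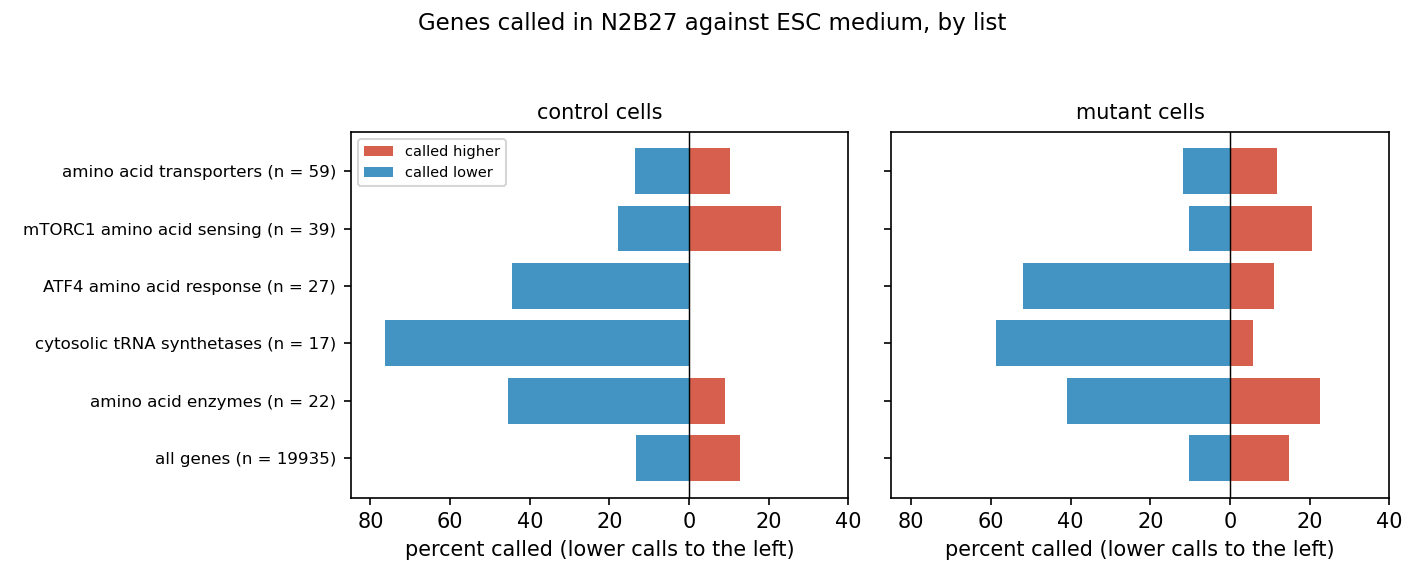
Percent of the measured genes of each list called higher (to the right of 0) or lower (to the left) in N2B27 against ESC medium (x axis), for control cells (left) and mutant cells (right), with the 59 transporters and all 19935 genes beside them (y axis). Calls on the transporters lie on both sides of 0 as for all genes, while 13 of 17 tRNA synthetase genes fell and none rose in control cells.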

How the data were processed

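Total RNA was prepared with a whole-transcript kit and read on 11 one-colour Affymetrix arrays. RMA and Affymetrix Expression Console 1.2 are the tools that the submitters' processing notes name for the deposited log2 values. The values run from -5.22 to 6.42, and 55.8% of 28815 clusters hold an exact 0, so each cluster stands relative to a baseline that the sources used here do not define; log base 2 is taken from RMA's usual output. The genome build behind the array was not given in the sources used here.

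Clusters with 1 symbol (21780; 1605 had several and 5430 none) were averaged per gene, and 21689 matched RefSeq by Entrez identifier. Group means were fitted jointly with limma 3.58.1 in R 4.3.3 (lmFit, eBayes; 7 residual and 3.02 prior degrees of freedom), two-sided, adjusted by Benjamini-Hochberg over 19935 genes. The fit was tried on simulated data with independent normal noise. These held no array effects and no chromosome shifts, so the trial does not bear on those. Named with array values are Slc7a5, Slc3a2, Slc1a5 and Slc7a3 and, per pairwise comparison, up to the 6 largest called increases and 6 largest called decreases; other called members are given by differences. Members and lists were chosen with earlier results of these data known.

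Arrays share numbers between groups. Over all genes, same-numbered arrays' deviations from their group means correlated at 0.256, 0.430 and 0.158 between genotypes in N2B27. Between media in control cells the correlations were 0.138, 0.181 and 0.131. Over the members they were 0.294, 0.409 and -0.059 in N2B27, and -0.125, 0.103 and -0.111 in control cells. The labels name no pairing, so the fit behind the calls held no block, and the block was run as an alternative. Alternatives covered centring, the block, the samples fitted, the prior, array weights, a filter on variation, clusters, chromosomes 8, X and Y, and each array left out.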

Additional observations from a re-analysis of the deposited data

Results flagged for a closer look

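The interaction in the limma fit, the difference between genotypes in the response to N2B27, was called in 2 members. Of 19 alternatives, the Slc1a3 call was lost in 1 and the Slc43a1 call in 11. Both calls rest on the same 2 mutant ESC arrays. For Slc1a3 the difference between responses was 0.72 log2 units (adjusted p = 0.0143), a rise of 1.08 in mutant against 0.36 in control cells. For Slc43a1 it was 0.71 (adjusted p = 0.0470), a rise of 1.08 against 0.37. In both, the 2 mutant ESC arrays were below all control ESC arrays and the genotypes overlapped in N2B27.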

How the results depend on the processing

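Of 37 called member results, 16 kept the call in every alternative and 21 lost it in at least 1, 15 of these only on leaving out 1 array. Of 16 uncalled results of Slc7a5, Slc3a2, Slc1a5 and Slc7a3, 5 passed in at least 1 alternative. Array weights gave 12 called members between genotypes in ESC medium, 10 in N2B27, 24 between media in mutant cells and 9 in the interaction. In N2B27 between genotypes, 2 were called after centring each array on its median (over all genes, or outside chromosomes 8, X and Y), 4 with the replicate block, 3 without low-varying genes and 0 without chromosomes 8, X and Y, where Slc38a7 is not tested. Without those chromosomes 9 were called between media in mutant cells and 1 in the interaction, and with the replicate block 4 in the interaction. Leaving out 1 array gave 2 to 8 called between genotypes in ESC medium, 0 to 5 in N2B27, 8 to 12 between media in control and 9 to 17 in mutant cells, and 0 to 4 in the interaction.

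Between genotypes in ESC medium 2 array numbers were shared, with correlations over all genes of 0.0365 and 0.284. Between media in mutant cells 2 were shared too, with correlations of 0.215 and 0.266. The block gave 6 called between genotypes in ESC medium. Between media in mutant cells it gave 15 called, losing Slc38a5 and adding Slc6a13 and Slc7a14. In control cells the block gave 16 called, adding Slc38a2 and Slc38a9. Beside these and the values given with the results, the block changed no call of a member. The direction reversed in 5 uncalled results. On leaving out 1 array, Slc1a5 between genotypes ran from -0.10 to 0.20 in ESC medium and from -0.010 to 0.21 in N2B27, and Slc7a3 between media in control cells from -0.13 to 0.30. The interaction of Slc1a5 ran from -0.090 to 0.22 and was -0.073 with array weights, and that of Slc3a2 ran from -0.046 to 0.17. The cause of these changes was not tested, and brightness over background cannot be read from centred values.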

Other observations

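Some members are neighbours in the RefSeq annotation of GRCm38.p6, and the differences between neighbours were not tested. Slc38a1 and Slc38a2, system A carriers with no gene between them on chromosome 15, differed between genotypes by -0.50 and -0.22 in ESC medium and by 0.01 and 0.37 in N2B27; Slc38a1 in ESC medium was the one call among these without a block, and Slc38a2 in N2B27 was called with the array number as a block (adjusted p = 0.0116). Slc43a1 and Slc43a3, with 1 gene between them on chromosome 2, differed between media in mutant cells by 1.08 ± 0.11 (adjusted p = 1.33e-04) and 0.28 ± 0.11 (adjusted p = 0.0869). The cluster of Slc36a3, Slc36a2 and Slc36a1 on chromosome 11 held no called member. Slc6a16 had 1 control ESC array, number 1, at 1.05 against 0.29 and 0.01 on the other control ESC arrays, the widest spread of any member in that group, and was chosen for mention after its values were seen.

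Mutant N2B27 array 2 was the highest of the series for Slc7a8, at 1.00, and the lowest for Slc6a15, at -0.82. Without it, the genotype differences in N2B27 of these members were smaller and both passed the test, giving 3 called members in place of 1.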
